A study of Schizosaccharomyces pombe with 4 samples.

Results

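Trimethylation of histone H3 at lysine 9 (H3K9me3) was compared between the strains called IRD3 and WT of the fission yeast Schizosaccharomyces pombe, probe by probe across the whole genome. The 2 arrays were those titled for these strains, out of 4 in the series, and the other 2, of strains IRD1 and IRD2, are given only side by side. Chromatin from exponentially growing cells, cultured at 32 °C and fixed in 3% paraformaldehyde, was sheared to fragments of 400 to 600 bp and precipitated with an antibody to H3K9me3. Precipitated DNA was labelled with Cy5 and whole-cell extract DNA (the input) of the same cells with Cy3, and both were hybridised to a tiling array with a probe every 300 bp. All 4 titles also carry the tag REIID. The labels expand neither REIID nor IRD, and do not say which locus is altered in IRD3 or whether the strain is 1 clone. Each strain had 1 array, so no difference has a replicate check and no p-value is given.

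H3K9me3 marks the constitutive heterochromatin of fission yeast. The methyltransferase Clr4 deposits it, and HP1-family proteins such as Swi6 bind it. It covers the repeats that flank the centromeres, the subtelomeres and the silent mating-type region on chromosome 2, where inverted repeats mark the borders of the domain. It is low over the central core of each centromere, where the histone variant CENP-A takes the place of most H3. The ends of chromosome 3 hold the ribosomal DNA arrays.

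A level is the log2 ratio of precipitated over input DNA, centred on the median of each array, and a difference is IRD3 minus WT in log2 units, taken over the probes measured on both arrays. Of 41551 genomic probes, 39395 (94.8%) had a ratio on both. Across these probes, which are not independent replicates, levels on the arrays correlated with r = 0.963, and over the 38253 probes of the chromosome arms with r = 0.951. The difference varied between neighbouring arm probes with an SD of 0.14. Adjacent arm probes deviated together (r = 0.57 between their differences), so this SD understates the error of a regional median and is no replicate error. Input differences over the arms had a robust SD of 0.09. Over all probes 38.6% were higher in IRD3 by any amount and 61.4% lower, so a region in which a share near 38.6% is higher resembles the background.

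Inside the silent mating-type domain, H3K9me3 was high in both strains and slightly lower in IRD3. It was taken as positions 2131200 to 2138400 of chromosome 2 together with positions 19800 to 39300 of a mating-type contig that the array tiles separately. Its 70 probes had a median level of 5.88 in WT (quartiles 5.49 and 6.16) and 5.70 in IRD3 (quartiles 5.38 and 6.03). The difference was -0.13 (quartiles -0.28 and 0.00). Loess within each array gave -0.37, against -0.03 over the arm probes. IRD1 had 5.94 and IRD2 5.08 at the same probes. IRD3 was higher than WT at 19 of the 70 probes and lower at 51, while 38.6% of all probes were higher. Arm probes in the classes of highest mean level, given further on, differed by -0.13 and -0.15. Their WT medians were only 1.01 and 1.49, so they do not match the domain in level. The centromeric repeats, at 6.37 in WT, differed by -0.05.

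Along the contig the difference was largest at its borders. The median over the first 3 kb was -0.31 (4 probes), and over the last tile it was -0.29 (4 probes). Between them the medians of successive 3 kb tiles were -0.16, -0.11, -0.03, -0.12 and 0.13, so the middle of the domain sat closest to WT. Each of the outer tiles holds 1 of the probes with low input given further on. The highest IRD3 level there, 7.15 at position 29700, was also above the 6.84 of WT. On chromosome 2 the 21 domain probes differed by -0.19 (quartiles -0.39 and -0.07), and 4 of them were higher in IRD3.

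Levels stepped up at the same probes of the domain's borders in IRD3 as in WT. On chromosome 2 the level was 1.99 in WT and 2.07 in IRD3 at 2130900, just outside the left border, and 4.06 and 4.45 at 2131200, just inside it. On the right, it was 4.35 in WT and 4.13 in IRD3 at 2138400, and 2.88 and 3.02 at 2138700. The first 5 probes outward differed by 0.08 on the left and by 0.08 on the right. IRD1 had a median of 1.58 over the first 5 probes on the left, close to the 1.39 of WT and 1.33 of IRD3, whereas IRD2 had 3.71 there. Over the 20 kb flanks the differences were 0.02 (64 probes) and -0.04 (64 probes). On the contig, the first 5 probes outward differed by -0.18 on the left and -0.21 on the right, with levels of 1.13 and 1.46 in IRD3.

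IRD3 had low input signal at 2 probes, and both lay at the edges of the contig domain. A probe was counted as missing DNA on 1 array where its input, centred on the array's median, was at least 3 log2 units lower than on the other, and this held for 2 of 41551 probes in IRD3 (0.00481%). With normexp background correction of the input 0 probes met this rule, but the 2 probes could not have met it. The lowest normexp input on the IRD3 array was -1.80, and WT had -0.90 at 19800 and 0.33 at 39000. IRD3 had -1.79 and -1.78 there, close to that lowest value, with differences of -0.88 and -2.11. At 19800, the outermost enriched probe on the left, input was -0.45 in WT and -6.36 in IRD3. The raw spot there read 3955 over a background of 30 in WT and 244 over 81 in IRD3. At 39000, the last but one enriched probe on the right, input was 0.38 in WT and -5.80 in IRD3, and the spot read 7883 in WT against 270 in IRD3. The probes lie 19.2 kb apart, and their neighbours at 19200, 20400, 38400 and 39300 differed in input by -0.06 to 0.18.

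The low input was thus confined to single probe positions. The H3K9me3 ratio at both was lower in IRD3, at 3.79 against 4.69 and at 4.03 against 5.38, but in IRD3 these ratios come from spots little above background. IRD1 and IRD2 kept input at both probes (-0.71 and 0.18 at 19800, 0.22 and 0.19 at 39000). They had low input at other border probes of the domain: IRD2 at 39300 of the contig (-7.89) and at 2131200 (-8.16) and 2138400 (-7.95) of chromosome 2, and IRD1 at 2138700 (-7.21). IRD3 had input like WT at each of these, between -1.12 and -0.19.

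**Figure D1:**
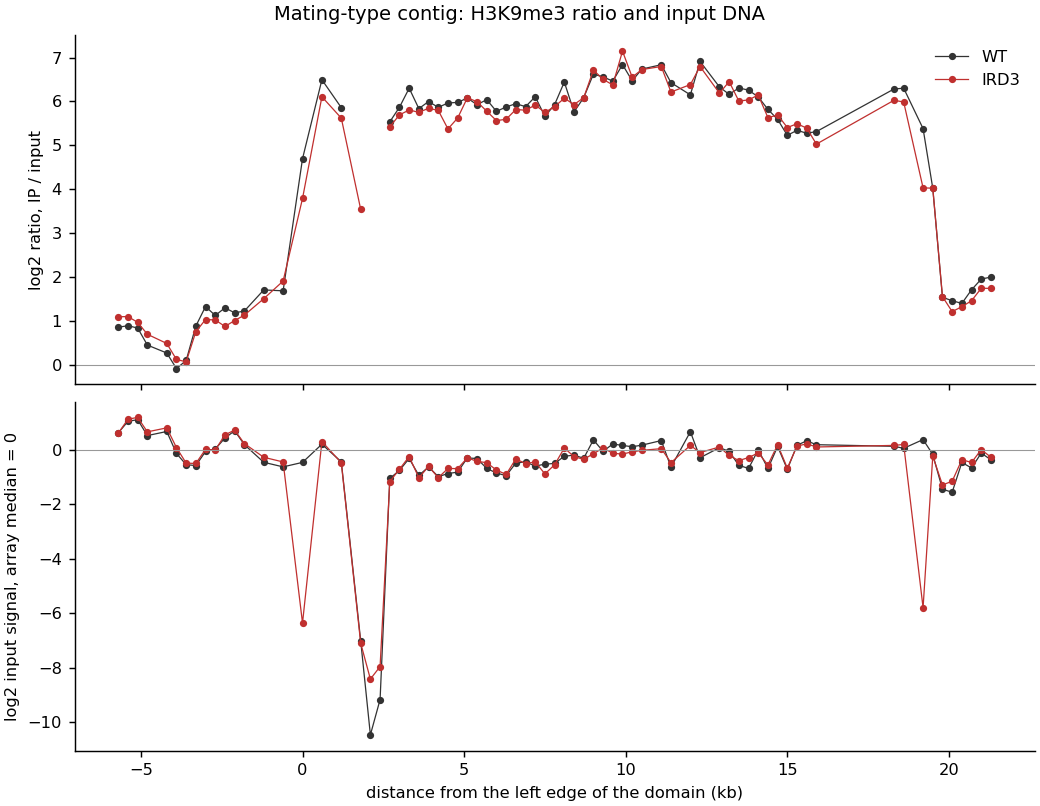
H3K9me3 level (top, log2 ratio of precipitated over input) and input signal (bottom, log2, array median at 0) against distance in kb from the left edge of the enriched domain on the mating-type contig, 1 point per probe, WT in black and IRD3 in red. The levels overlie each other across the domain, while the IRD3 input drops to -6.36 and -5.80 at 2 edge probes; the 3 probes of low input near 2 kb are low in both strains.

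WT in turn had low input at probes of contigs whose names begin with pNSU, which the labels do not place in the genome. The same rule gave 5 probes for WT (0.012%). On pNSU21, input at 3000 was -3.24 in WT, where the spot was outlier-flagged, and 0.56 in IRD3. At 3300 it was -5.43 and -0.27. On pNSU65, input at 3000 was -7.59 in WT and -0.68 in IRD3, and at 3300 it was -3.75 and -0.03. The WT input at these 4 probes was low but still flagged as well above background. IRD1 and IRD2 had input like IRD3 at them, between -0.88 and 0.56, so WT was the array that stood apart. The remaining probe, at 2133300 on chromosome 2, was weak on both arrays (-10.59 and -7.31).

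Pericentromeric H3K9me3 was high in both strains, and the size of the difference depended on the normalization. The 196 probes of the enriched centromeric repeats had a median level of 6.37 in WT and 6.32 in IRD3, a difference of -0.05 (quartiles -0.19 and 0.08). Normexp background correction gave 0.01, and loess within each array gave -0.46 (quartiles -0.59 and -0.28). By chromosome the differences were 0.01 at centromere 1 (58 probes), -0.04 at centromere 2 (45 probes) and -0.08 at centromere 3 (93 probes). Of the 196 probes, 83 were higher in IRD3 and 113 lower, a share near that of the background, where 38.6% of probes were higher. Most centromeric probes (181) have names that end in f or m, letters that the files do not explain. The 15 without these letters had a difference of -0.26.

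Between the repeat blocks of each centromere, where both strains were low, IRD3 was lower still. Over the longest gap of centromere 1 the level was -1.14 in WT and -1.65 in IRD3, a difference of -0.50 (37 probes). At centromere 2 it was -1.64 and -1.83, a difference of -0.25 (27 probes), and at centromere 3 it was -0.67 and -1.21, a difference of -0.38 (30 probes). IRD1 and IRD2 were also below WT in the 3 gaps. Their medians were -1.56 and -1.61 at centromere 1, -1.68 and -1.76 at centromere 2, and -1.14 and -1.28 at centromere 3. At centromere 2 the median differences from WT were small, -0.06 in IRD1 and -0.18 in IRD2. The input was higher in IRD3 by 0.15, 0.15 and 0.17 in the 3 gaps, and the precipitated signal differed by -0.34, -0.02 and -0.24. At centromere 2 the lower ratio thus came with a nearly unchanged precipitated signal. The part of the input in the lower ratio was not tested.

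The gap of centromere 3 held the only stretch that was lower in IRD3, a stretch being a run of at least 4 neighbouring probes that differed by at least 1 in the same direction. From 1094100 to 1096500, 9 probes had levels between 0.97 and 1.61 in WT and between -0.66 and -0.15 in IRD3. They were chosen by their difference, so the separation of these ranges is no further support. The median difference was -1.88, a ratio 0.272 times that of WT, with input higher by 0.37 and precipitated signal lower by 1.33. At 1105200 and 1105500, on the other side of the gap, the differences were -1.96 and -1.85. Medians of IRD1 (-0.80) and IRD2 (-0.66) over the 9 probes were close to the -0.51 of IRD3, so WT was again the array that stood apart. All 9 probes carry the letter f in their names.

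The largest differences of 1.5 kb windows lay at the right end of chromosome 1, where the subtelomeric domain reached further inward in IRD3. A stretch ran from 5523300 to 5542800, a span of 19.5 kb whose outer edge lay 31.8 kb from the outermost probe. Its 65 measured probes were all higher in IRD3 by at least 1, which follows from how stretches were chosen. Their median level was 0.48 in WT and 4.19 in IRD3, and the median difference was 3.16, or 8.95-fold (range 1.03 to 4.37). Input differed by -0.16 there and the precipitated signal by 3.09. In 5 kb bins from the end, WT and IRD3 were alike up to 20 kb, with differences between -0.12 and 0.18. The difference then grew to 0.33 at 20 to 25 kb, 0.67 at 25 to 30 kb, 1.60 at 30 to 35 kb, 3.40 at 35 to 40 kb and 3.98 at 40 to 45 kb, and declined to 3.07 at 45 to 50 kb, 0.70 at 50 to 55 kb and 0.30 at 55 to 60 kb.

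At 40 to 45 kb, WT had a level of 0.29, against 0.02 over its arms, and IRD3 one of 4.14, close to the 4.41 it had at 10 to 15 kb. The unbroken run of 5-probe running medians of at least 2 from the end reached 34.2 kb in WT and 49.2 kb in IRD3, a gain of 15 kb. It reached 46.2 kb in IRD1 and 48.9 kb in IRD2. The 4 arrays thus fell into WT on one side and the other strains on the other. Over the stretch IRD3 had the highest median, 4.19, against 3.34 in IRD1 and 3.82 in IRD2. It was above IRD1 at 64 of 65 probes and above IRD2 at 60. The stretch was chosen for a high IRD3 against WT, which favours IRD3 in these counts, and neighbouring probes are not replicates. IRD1, IRD2 and IRD3 are all set against the same WT array here, so these are not separate observations of WT.

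At the right end of chromosome 2, IRD3 had a higher median than WT, IRD1 and IRD2 over a long stretch. From 4484400 to 4493700, a span of 9.3 kb whose outer edge lay 16.8 kb from the outermost probe, the 31 probes had a median level of 1.26 in IRD3. WT had -0.11 at the same probes, IRD1 0.33 and IRD2 -0.14. The outer part was not particular to IRD3. In the window from 4492500 to 4494000, IRD1 had 0.76 and IRD2 0.92, close to the 1.02 of IRD3 and above the -0.09 of WT. The difference of IRD3 from WT over the 31 probes was 1.33 (range 0.99 to 2.13). That 30 of the 31 were at 1 or above follows from how stretches were chosen. IRD3 exceeded IRD1 at 30 of 30 probes and IRD2 at 29 of 31, counts of neighbouring probes that the same choice favours. None of these probes carries the letter f or m, and the input differed by -0.11. The level reached was moderate: the outer subtelomere of this end, at 5 to 10 kb, stood at 4.23 in WT and 4.25 in IRD3, so the inner stretch stayed far below it.

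Between that stretch and the outer domain lay a segment where all 3 IRD strains were above WT. Over the 5 kb inward of the WT domain, from 4494000 to 4498500, the median was 0.03 in WT and 0.93 in IRD3, against 1.18 for IRD1 and 1.29 for IRD2. Further inward the difference decreased from 1.39 at 20 to 25 kb through 0.61 at 25 to 30 kb and 0.52 at 30 to 35 kb to 0.24 at 35 to 40 kb. It remained between 0.14 and 0.30 out to 60 kb. In the bins from 20 to 40 kb, IRD1 was above WT by medians of 0.26, 0.28, 0.52 and 0.26. IRD2 was above WT by 0.10, 0.20, 0.24 and 0.10 in these bins. From 40 to 60 kb IRD1 was above WT by 0.23 to 0.40 and IRD2 by 0.18 to 0.36, more than IRD3 in each bin. The run of levels of at least 2 ended at 11.7 kb in WT and in IRD3 alike, because the added signal stayed under that threshold.

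At the left ends of chromosomes 1 and 2 the domain also ended at the same probe in both strains, at 36.3 kb and 15.3 kb. The step on chromosome 1 was sharp: at 36300 the level was 4.02 in WT and 3.92 in IRD3, and at 36600 it was -0.09 and 1.21. Over the 5 kb inward of the step, WT had -0.12 and IRD3 0.85, a difference of 0.92 over 16 probes, all of them higher in IRD3. On chromosome 2 only 4 probes lay in the corresponding 5 kb, with -0.18 in WT and 0.86 in IRD3. IRD1 had 1.15 and 0.96, and IRD2 1.22 and 1.32, in the same segments. IRD3 was therefore above WT beyond all 4 borders of chromosomes 1 and 2.

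Within the outer domains WT had stretches of lower level that IRD3 lacked. From 22800 to 28200 at the left end of chromosome 1, 19 probes had a median of 2.89 in WT and 4.46 in IRD3, a difference of 1.68. From 300 to 4800 at the left end of chromosome 2, 15 probes had 3.04 in WT and 4.50 in IRD3, a difference of 1.55. From 4509300 to 4510500 at the right end of chromosome 2, 5 probes had 2.47 and 4.38, a difference of 1.73. In all 3 stretches the input was also lower in IRD3 (differences of -0.46, -0.47 and -0.50), while the precipitated signal was higher by 1.19, 1.13 and 1.28. The ratio therefore combined both channels, and nearly all the probes (17 of 19, 15 of 15 and 5 of 5) carry the letter f or m. IRD1 and IRD2 had medians between 4.46 and 5.02 in these stretches, at or above those of IRD3.

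Over the whole outer 40 kb of chromosomes 1 and 2, the 454 probes had a median level of 3.78 in WT and 4.29 in IRD3, and 358 were higher in IRD3. The median difference was 0.31 (quartiles 0.04 and 1.01), which averages over the unlike segments above. By end it was 0.14 on the left of chromosome 1, 0.37 on its right, 0.15 on the left of chromosome 2 and 0.61 on its right. In bulk chromatin a ratio of this kind cannot tell more cells with the mark from more mark per cell.

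**Figure D2:**
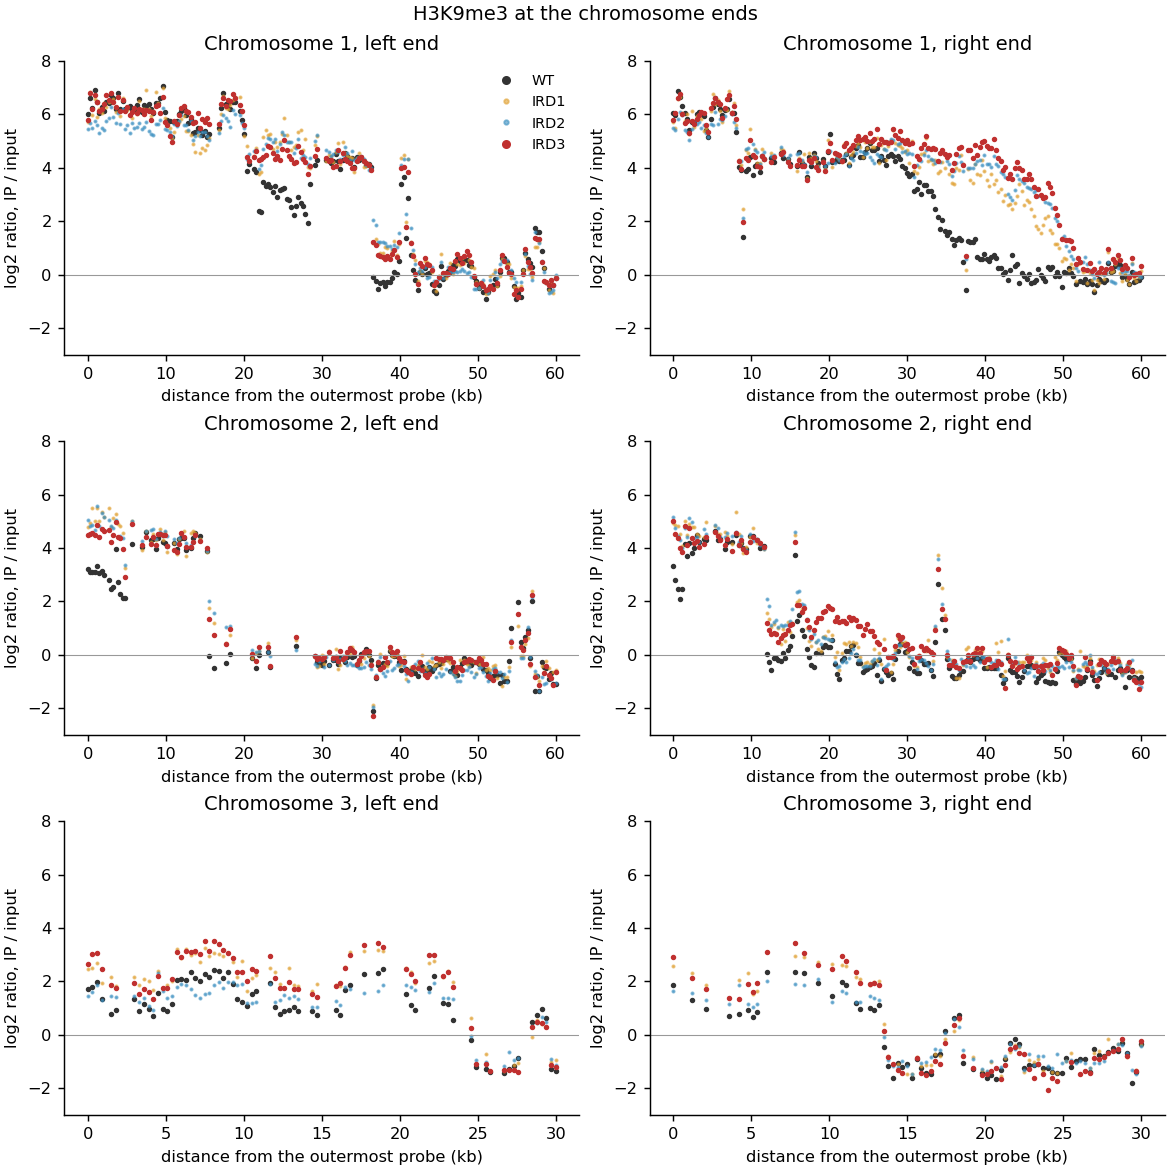
H3K9me3 level (log2 ratio of precipitated over input) against distance in kb from the outermost probe at the 6 chromosome ends, 1 point per probe, with WT in black, IRD3 in red, IRD1 in yellow and IRD2 in blue. On the right of chromosome 1 the 5-probe running median stays at 2 or above out to 49.2 kb in IRD3 and 34.2 kb in WT. On the right of chromosome 2 most red points are highest in the 9.3 kb that begin 16.8 kb from the end, a stretch chosen for its difference from WT.

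At the ends of chromosome 3, IRD3 was above WT. The 86 probes of the outer 20 kb had a median of 1.05 in WT and 1.95 in IRD3, a difference of 0.86 (quartiles 0.64 and 1.02), and 76 were higher in IRD3. On the left the difference was 0.95, with all 49 probes higher. On the right it was 0.65, and it was between 0.78 and 0.88 in the outer 3 bins of 5 kb but -0.09 at 15 to 20 kb, where both strains were below their array medians. IRD1 had a median of 2.11 and IRD2 one of 1.38 over the 86 probes. All of these probes carry the letter f or m, and the sign of this difference did not hold with another normalization: loess within each array gave -0.15.

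On the pNSU contigs, 110 of 126 probes were higher in IRD3. Their median was 3.84 in WT and 4.83 in IRD3, a difference of 0.55 (quartiles 0.16 and 1.17), with an input difference of -0.14. The 29 probes of pNSU71 differed by 0.04 and the 23 of pNSU77 by 1.01, so the contigs were not alike. All 126 probes carry the letter f or m.

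**Figure D3:**
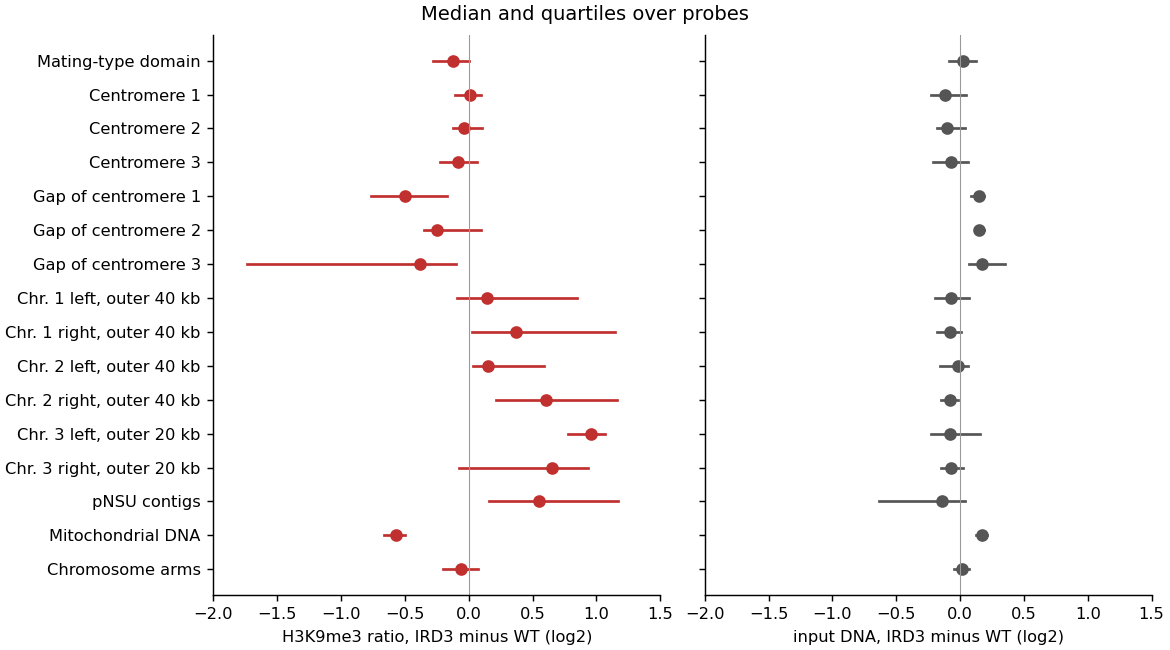
Median (point) and quartiles over probes (line) of IRD3 minus WT in log2 units for each region, for the H3K9me3 ratio on the left and the input signal on the right. The domain and centromere points lie near 0, the chromosome ends lie to the right of it and the centromere gaps and mitochondrial DNA to the left.

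Counted over the genome, differences of at least 1 were few, and most of them were higher in IRD3. Among 8204 windows of 1.5 kb with at least 3 probes measured on both arrays, 17 (0.207%) had a median of at least 1 in IRD3 and under 1 in WT with a difference of at least 1, and 1 (0.0122%) met the same rule in the other direction. By difference alone, 42 windows (0.512%) were higher by at least 1 and 2 (0.0244%) lower. Of the windows, 97.5% differed by less than 0.5. Counting levels without a minimum difference ran the other way: 974 windows were at 1 or above in WT and 737 in IRD3, with 311 in WT only and 74 in IRD3 only. The 17 windows lay on chromosome 1 (10), chromosome 2 (6) and chromosome 3 (1), and 9 of them formed 1 interval from 5523000 to 5536500 on chromosome 1 and 5 another from 4486500 to 4494000 on chromosome 2.

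The highest single window, 5533500 to 5535000 on chromosome 1, had 0.66 in WT and 4.83 in IRD3, a difference of 4.16. The window counted on chromosome 3, from 2448000 to 2449500, had 0.87 in WT and 1.89 in IRD3. The single window counted as lower was 1095000 to 1096500 in the gap of centromere 3, with 1.49 in WT and -0.55 in IRD3. It was not counted with normexp, with loess, without probes with the letters f or m, or at a level of 2, where the count was 0. Runs of single probes gave the same picture: 11 stretches were higher and 1 lower, with 172 probes in all, and 8 of the 11 had an edge within 40 kb of a chromosome end, where 1.65% of the measured chromosomal probes lie. The largest difference of a single probe was 6.92, at 1516800 on chromosome 2, a probe chosen after its value was seen. The IRD3 array read 7.96 there against 1.05 for WT, 0.48 for IRD1 and 0.86 for IRD2, while its neighbours at 1516500 and 1517100 differed by -0.02 and -0.35.

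**Figure D4:**
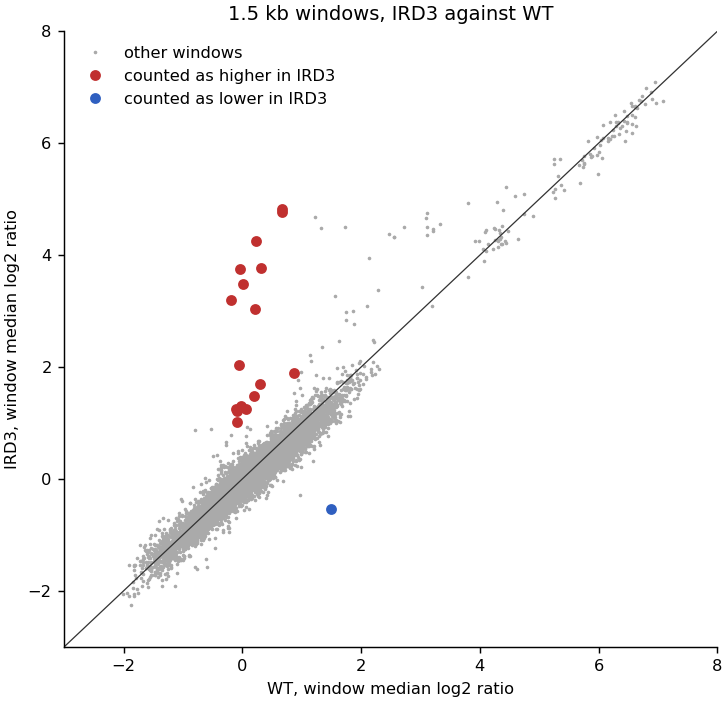
Median H3K9me3 level (log2 ratio) of each 1.5 kb window in IRD3 against WT, with the line of equal levels; red points are the 17 windows counted as higher in IRD3 and the blue point is the 1 counted as lower. Most windows follow the line, and the red points rise from it up to a difference of 4.16.

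A few stretches inside the chromosomes also differed. Near the left end of chromosome 2, from 76200 to 77100, 4 probes had 0.27 in WT and 3.66 in IRD3, a difference of 3.42, against 2.55 in IRD1 and 2.98 in IRD2. All 4 carry the letter f, as do 4 probes from 5530800 to 5531700 inside the right-end stretch of chromosome 1, which had 0.25 in WT and 3.68 in IRD3. The input was lower in IRD3 at both, with differences of -0.58 and -0.48. Whether the probes of both places detect the same DNA was not tested, since no probe sequences were used here.

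On the same chromosome, 5 probes from 2200500 to 2201700 had -0.80 in WT and 0.88 in IRD3, a difference of 1.85. Another 6 probes from 2340000 to 2341500 formed a peak in both strains, with a median of 1.08 in WT and 2.66 in IRD3, a difference of 1.64. At the top of that peak, position 2340900, the level was 2.71 in WT and 4.31 in IRD3, with 3.91 and 3.64 in the strains IRD1 and IRD2. The stretches from 76200, 2200500 and 2340000 were chosen for a high IRD3 against WT, which favours IRD3 in the following counts. In them IRD3 was also above IRD1 and IRD2 at every probe (4, 5 and 6), while both of these were above WT. Neither of the last pair holds probes with the letter f or m, and input differed by -0.0031 and 0.11. The files name no genes and no genome build, so the genes at these positions are not given.

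**Figure D5:**
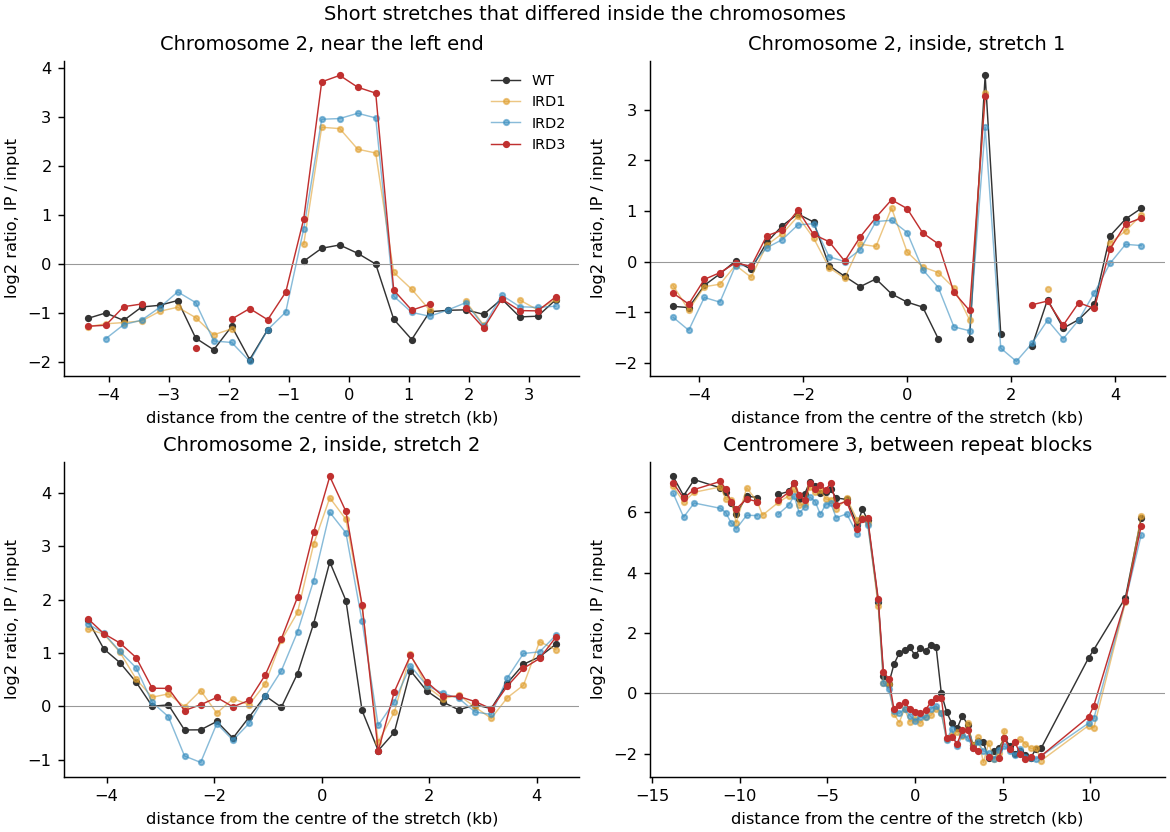
H3K9me3 level (log2 ratio of precipitated over input) of the 4 arrays against distance in kb from the centre of 3 stretches of chromosome 2 that were higher in IRD3 and of the centromere 3 stretch that was lower. WT (black) is apart from the other 3 strains in each, and IRD3 (red) has the highest median in the 3 chromosome 2 stretches.

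IRD3 and WT were close at the strongest peaks of the arms. The window from 276000 to 277500 on chromosome 3 had 5.86 in WT and 5.81 in IRD3, and that from 115500 to 117000 had 5.73 and 5.70. The window from 2116500 to 2118000 on chromosome 2 had 3.80 and 3.61, and that from 60000 to 61500 on chromosome 1 had 3.02 and 3.43. None of these peaks differed by more than 0.41.

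Over the 38253 arm probes the median difference was -0.06 (quartiles -0.20 and 0.07). It depended on the level: in the 10 equal classes by mean level it was between -0.02 and -0.06 in the lower 7 and reached -0.10, -0.13 and -0.15 in the upper 3. The 58 mitochondrial probes, which carry no histones and give the ratio of DNA without nucleosomes, had -1.66 in WT and -2.21 in IRD3, a difference of -0.57, and input was higher by 0.17.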

How the data were processed

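All 4 arrays shared 1 slide and 1 scan, per the file headers. The authors obtained intensity values with Agilent Feature Extraction 12.0.3.1, also named in those headers, which subtracted the background and normalized the dyes to give the processed signals. The series' value table holds the authors' linear ratio of red over green, which matched the processed signals within 0.0133 on the log2 scale and is not centred (column medians 1.08 in WT and 1.04 in IRD3). In the deposited IRD1 and IRD3 files the precipitated signals are rounded to 3 significant digits, and in those of WT and IRD2 they are not. IRD1 and IRD3 also had more outlier-flagged probes (7.33% and 4.28%) than WT and IRD2 (1.13% and 0.54%). Any part of this in the differences between IRD3 and WT was not tested. Labels of IRD1 and IRD3 exchange the genotype and antibody fields, so strains were taken from titles.

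Control spots (1417) were left out, as were outlier-flagged probes (1.13% in WT, 4.28% in IRD3) and probes with input not well above background (7 and 6). Usable probes were 41075 in WT and 39768 in IRD3, and no spot of either array was saturated. Values are log2 ratios of the processed signals, red over green, minus each array's median, computed with Python 3.11.15 and pandas 2.3.3. Domains were runs with a 5-probe running median of at least 3, taken on the mean of WT and IRD3, with runs up to 3 kb apart joined. Centromeres were the largest internal cluster of runs, and the arms everything outside domains and chromosome ends. Subtelomeres were the outer 40 kb of chromosomes 1 and 2, and the outer 20 kb of chromosome 3. Named windows were the 10 largest differences each way among counted windows, with neighbours joined, every missing-DNA probe, the strongest arm windows and border probes. Stretches of at least 4 probes were added after the data were seen, with their breaks of up to 900 bp joined. Members and lists were chosen with earlier results of these data known. Alternatives were normexp with offset 50 and loess (limma 3.58.1 in R 4.3.3; spot medians were used because the files hold no means), the value table, other centring, scaling, probe sets, windows and thresholds. Simulated data with known changes were used to test the window rule. With 1 array a strain, precision is limited by the number of arrays. Positions are those in the probe names. The genome build is not given in the sources used here, so none were converted and no sequences or genes are given.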

Additional observations from a re-analysis of the deposited data

How the results depend on the processing

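No paired analysis was possible because each strain had 1 array. Of 86 alternatives for the main results, 61 gave the same outcome, 14 moved a value (a log2 difference by more than the neighbour noise of 0.14, or a reach), 10 moved a count by over 1.5 times and 1 turned a sign. Loess within each array gave -0.37 for the mating-type domain, -0.46 for the centromeres, 0.16 for the subtelomeres and -0.15 for the ends of chromosome 3, where the sign turned; the cause was not tested. Under it the chromosome 3 stretches from 300 and from 6900 became -0.056 and -0.15, while the other named stretches kept their sign in all alternatives run. Without probes with the suffix f or m, the centromeres had -0.26 and the subtelomeres 0.51. The subtelomeres had 0.60 by the mean and 0.10 over the outer 20 kb, and the ends of chromosome 3 had 0.18 over the outer 40 kb. Windows higher in IRD3 numbered 10 with 3 kb windows, 9 with a minimum difference of 1.5 and 42 by difference alone. Windows lower numbered 0 with normexp, loess, no f or m probes or a level of 2, and 2 by difference alone. With each array's own usable probes, an alternative chosen after seeing the data, 21 windows were higher. The inward reach of IRD3 minus WT at threshold 2 was 0 on the left of both large chromosomes and on the right of chromosome 2. At threshold 3 it was 11.1 kb on the left of chromosome 1, 13.5 kb on the left of chromosome 2 and 11.7 kb on its right. At these 3 ends IRD3 reached no further than at threshold 2 (36.3, 15.3 and 11.7 kb). The WT run instead broke at 25.2, 1.8 and 0 kb, within the stretches of lower WT level in the outer domains. At threshold 1 the difference in reach was 12.3 kb on the right of chromosome 1 (15 kb at threshold 2). On chromosome 3 it was 21.9 kb on the left (0.9 kb at threshold 2) and 12 kb on the right (0 at threshold 2). With the normexp green signal 0 probes counted as missing in IRD3 and 0 in WT; its lowest values were -1.81 in WT and -1.80 in IRD3 relative to the array median, so probes near the median could not pass the rule of 3.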

Other observations

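A few arm windows differed from all 3 other arrays. At 4237500 to 4239000 on chromosome 1, IRD3 had 0.88 against 0.14 in WT, 0.35 in IRD1 and 0.01 in IRD2. At 2581500 to 2583000 on chromosome 2, IRD3 had -0.85 against -0.25, 0.17 and -0.23. At 3276000 to 3277500 on chromosome 2, IRD3 had 0.32 against 1.19, 0.61 and 0.75. It was 0.87 below WT there but only 0.29 below IRD1. Over the genome, 13 windows (0.158%) were at least 0.5 above each of the other 3 arrays in IRD3. Of these, 5 were arm windows, and those outside the arms lay in the right-end stretches of chromosomes 1 and 2 described above. At least 0.5 below each of the other 3 arrays was 1 of the 8204 windows, that from 2581500. Input was at least 5 log2 units below the median on both WT and IRD3 at 9 probes, among them 2133000 to 2133900 on chromosome 2 and 21900 and 22200 on the mating-type contig.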
